A study of Mus musculus with 4 samples.

Results

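Genes of class I antigen presentation and of the interferon response were examined in mouse erythroleukemia (MEL) cells that lacked or carried the CTLH ubiquitin ligase subunit Wdr26. The set was defined by gene symbol: 38 genes were listed, 37 of them had a row among the 17393 genes of the expression table, and Ifi44 was not analysed here. The cells were DS19, a MEL line of transformed erythroid precursors, with 2 RNA-seq libraries of the Wdr26-/- genotype and 2 of wild type, numbered 1 and 2 in each. The culture description names 1.5% dimethyl sulfoxide, an inducer of red cell-like differentiation in this line, and leaves unsaid if it was given to the cells used here. The labels do not say how the knockout was made or whether it is 1 clone or several. They also do not say that libraries of a genotype are separate cultures, and every p-value below rests on a spread among samples that may be technical only.

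Class I molecules carry peptides from inside the cell to its surface, where T cells and natural killer cells inspect them. The peptides are cut by the proteasome, pumped into the endoplasmic reticulum by the Tap1-Tap2 transporter and loaded with the help of tapasin (Tapbp) onto a heavy chain paired with beta-2 microglobulin (B2m). Interferon acts through Jak kinases, Stat proteins and interferon regulatory factors (IRFs) to switch on antiviral genes, and it also raises the class I pathway, including the immunoproteasome subunits that replace the constitutive catalytic subunits. Maturing red cells lower their class I molecules.

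The table names no unit, and its values behave as FPKM, a fragment count divided by transcript length and by depth, so levels can be set side by side between genes. Depth was estimated at 25900000 to 27300000 fragments per library. Wdr26 itself averaged 8.42 ± 0.82 FPKM in knockout and 53.9 ± 2.11 FPKM in wild type (SD, n = 2 each, limma adjusted p = 0.0063). All 10 listed erythroid markers were above the filter for low genes, with the alpha globin gene Hba-a1 at 122154 to 168691 FPKM. Of the 10, 6 were lower in both knockout libraries (10.8% of all genes tested). The markers were not counted with median-centred values, where the share of all genes was 20.1%. Among the red cell genes, the band 3 gene Slc4a1 was at 48.6 and 6.70 FPKM in knockout and at 436 and 285 FPKM in wild type. Markers of macrophages and dendritic cells summed to 3.26 and 2.43 FPKM in knockout, against 2.74 and 1.82 FPKM in wild type, over the 11 of 12 genes with a row, and Itgax was listed at 0 in all 4 libraries. Lymphocyte markers summed to between 0.18 and 0.55 FPKM over the 7 of 10 genes with a row, with Cd3e and Nkg7 listed at 0 throughout. Mast cell and granulocyte markers (5 of 9 with a row) summed to 7.07 and 12.3 FPKM in knockout and to 3.26 and 3.83 FPKM in wild type. Nearly all of this came from the protease gene Prtn3. Stromal and endothelial markers (5 of 8 with a row) summed to at most 1.59 FPKM. Megakaryocyte markers, by contrast, were abundant. All 5 had a row, and they summed to 273 and 284 FPKM in knockout and to 247 and 301 FPKM in wild type. Most of this came from the integrin gene Itga2b, at 240 and 235 FPKM in knockout and 215 and 232 FPKM in wild type. What part these sums have in the results was not tested. In bulk RNA, fewer cells that express a gene and less of its RNA per cell cannot be told apart.

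Of the 37 genes, 27 reached 1 FPKM in at least 2 libraries and were tested, and 10 stayed under 1 FPKM in every library. The genotypes were set against each other with limma on log2(FPKM + 1) over all 10670 genes that passed the filter. None of the 27 passed a Benjamini-Hochberg adjusted p of 0.05 in this fit without covariates, against 10 of all genes tested, which is 0.0937%. An alternative fit with the library number as a block called more genes, in the set and over all genes, and is described at the end. At an unadjusted p under 0.05, 12 of the 27 were higher in knockout (background 9.02%) and 1 was lower (background 2.4%).

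Both knockout libraries lay above both wild-type libraries for 16 of the 27 genes (background 29.9%), and below both for 3 (background 10.8%). For the other 8 the genotypes overlapped. The balance over all genes depends on scaling: with median-centred values the backgrounds were 19.9% higher and 20.1% lower, and the tested genes of the set divided into 15 higher and 3 lower. The median log2 change of the 27 genes was 0.28, beside 0.067 for all genes tested. Oas1a passed the filter only through the knockout libraries and H2-Q6 only through the wild-type libraries, so each had to differ. Without them 15 of 25 genes were higher in both knockout libraries and 2 were lower, and at an unadjusted p under 0.05 in limma 11 were higher and 0 lower. Exact permutation of 2 against 2 libraries cannot give a two-sided p below 0.333.

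**Figure D1:**
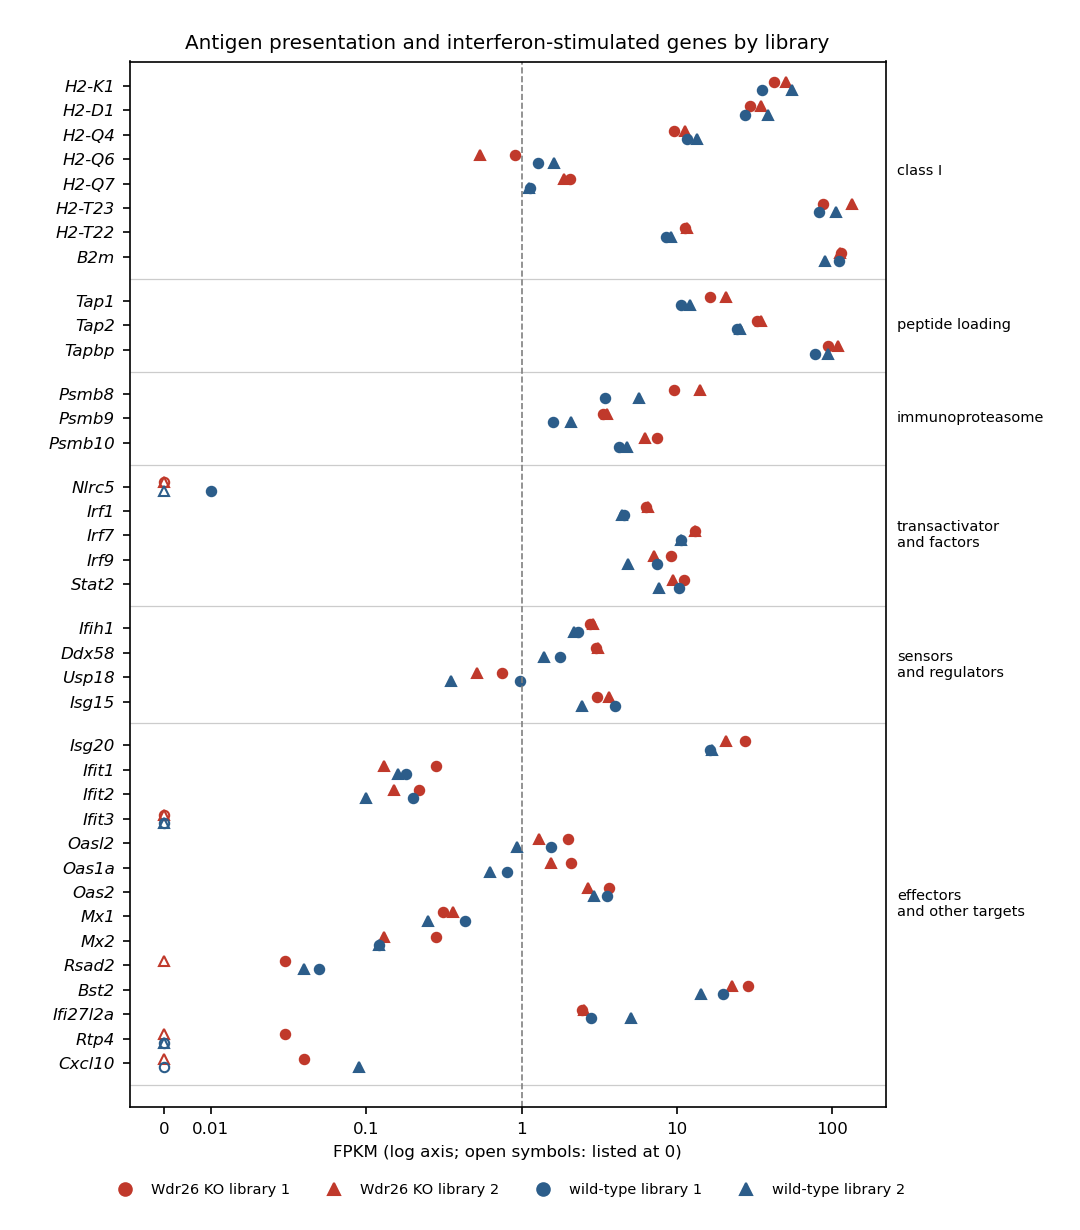
FPKM of each of the 37 genes in each library (log axis, open symbols at the left edge are values listed at 0, dashed line at 1 FPKM), grouped by role, with Wdr26 knockout in red above wild type in blue, circles for library 1 and triangles for library 2. The immunoproteasome and peptide loading genes lie to the right in both knockout libraries, the classical heavy chain genes H2-K1 and H2-D1 overlap, and 10 genes, most of them antiviral effectors, stay under 1 FPKM in every library.

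The immunoproteasome genes had the highest median log2 change of any role, 0.65, with Psmb8 far above the others. Psmb8 (gene ID 16913, chromosome 17, 34198195 to 34201454, GRCm38.p6), which replaces Psmb5 in the immunoproteasome, was at 9.60 and 14.09 FPKM in the knockout libraries, against 3.43 and 5.67 FPKM in wild-type cells. The ratio of means was 2.60, and the log2 change of 1.22 (SE 0.26, unadjusted p = 0.00322) was the largest of the set but had an adjusted p of 0.2 in limma. Library 2 was the higher of each pair, and the lowest knockout value was still above the highest wild-type value. Psmb9 (gene ID 16912, chromosome 17, 34182030 to 34187330), which takes the place of Psmb6, was at 3.36 and 3.54 FPKM in knockout and at 1.59 and 2.09 FPKM in wild type (log2 change 0.65, SE 0.17, limma adjusted p = 0.261). Psmb10 (gene ID 19171, chromosome 8, 105935728 to 105938392), the counterpart of Psmb7, was at 7.46 and 6.26 FPKM in knockout and at 4.24 and 4.80 FPKM in wild type (log2 change 0.51, SE 0.16, limma adjusted p = 0.323). All 3 genes were higher in both knockout libraries, and Psmb10, on another chromosome, had the smallest log2 change. These levels correspond to roughly 104 to 521 fragments per knockout library and 49 to 221 per wild-type library, with the fewest for Psmb9.

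Their constitutive counterparts were far more abundant, and their means lay within 1.08-fold of each other between genotypes. Psmb5 stood at 72.1 and 47.0 FPKM in knockout and at 59.2 and 52.7 FPKM in wild type. For Psmb6 the values were 103 and 88.8 FPKM in knockout and 92.6 and 100.02 FPKM in wild type, and for Psmb7 they were 98.7 and 80.4 FPKM in knockout and 89.1 and 77.2 FPKM in wild type. The genotypes overlapped for each of the 3. A ratio taken within a library does not depend on scaling between libraries. Psmb8 amounted to 13.3% and 30.0% of Psmb5 in the knockout libraries, against 5.79% and 10.8% in the wild-type libraries. For Psmb9 and Psmb6 the ratio was 3.25% and 3.99% in knockout and 1.72% and 2.09% in wild type. Psmb10 came to 7.56% and 7.79% of Psmb7 in knockout and to 4.76% and 6.22% in wild type. Each ratio was higher in both knockout libraries, by 1.34, 0.93 and 0.50 on the log2 scale, and each exact two-sided permutation p was 0.333, the smallest that 2 against 2 can give (also 0.333 after adjustment over the 3 ratios). Even in knockout library 2 the immunoproteasome transcript remained the minor form.

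**Figure D2:**
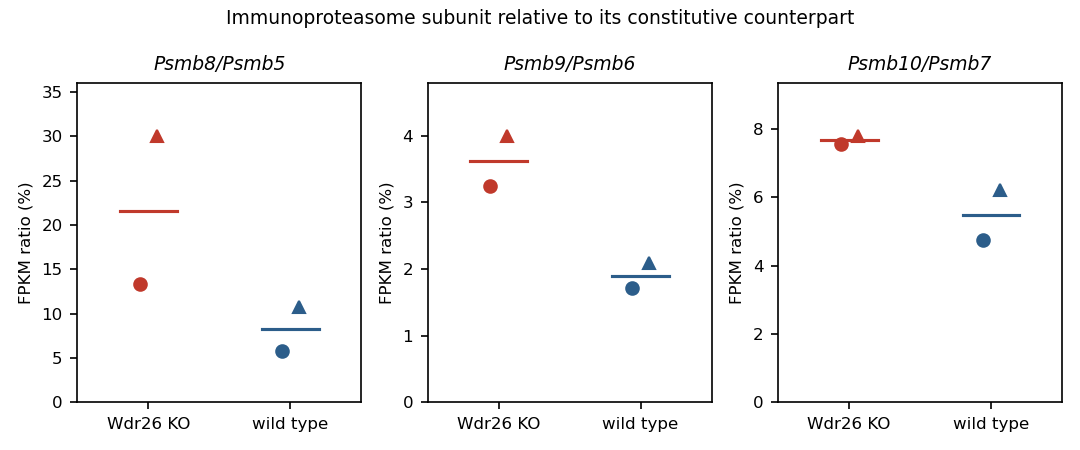
FPKM of Psmb8, Psmb9 and Psmb10 as a percentage of the constitutive subunit gene each replaces, with the Wdr26 knockout libraries left of the wild-type libraries, circles for library 1, triangles for library 2 and bars at the means. The knockout points lie above the wild-type points in each panel, with the largest spread between knockout libraries for Psmb8 (13.3% and 30.0%).

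Psmb9 shares its upstream region with the transporter gene Tap1. The 2 genes run in opposite directions from starts 226 bases apart, and Psmb8 and Tap2 follow on the same chromosome within 34291 bases of the Psmb9 end. The 250 bases before the Tap1 start, which reach into the first bases of Psmb9, and the 250 bases before the Psmb8 start are shown because these neighbours had among the largest differences in the set (RefSeq, GRCm38.p6, plus strand, chr17:34187306-34187555 and chr17:34197945-34198194). Capitals mark matches to the interferon-gamma-activated site (GAS) letters TTCNNNGAA, to the interferon-stimulated response element (ISRE, GAAA and GAAA with 2 bases of any kind between them), to the NF-kappaB motif (GGG and TTTCC with 2 bases of any kind between them) or to the cyclic AMP element TGACGTCA, each searched on both strands.
Tap1 upstream: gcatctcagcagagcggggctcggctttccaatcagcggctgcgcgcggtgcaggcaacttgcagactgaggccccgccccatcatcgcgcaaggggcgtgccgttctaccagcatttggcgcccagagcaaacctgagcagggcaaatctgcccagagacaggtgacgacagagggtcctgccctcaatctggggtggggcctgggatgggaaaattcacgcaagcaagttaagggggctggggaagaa
Psmb8 upstream: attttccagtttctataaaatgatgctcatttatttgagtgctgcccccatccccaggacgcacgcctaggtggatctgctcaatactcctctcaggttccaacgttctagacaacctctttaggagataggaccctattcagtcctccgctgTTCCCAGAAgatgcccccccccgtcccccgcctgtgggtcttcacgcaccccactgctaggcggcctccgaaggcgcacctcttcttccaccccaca
The Psmb8 stretch held 1 GAS match, 97 to 89 bases before the start, and the region between Psmb9 and Tap1 held no match to the letters of any of the 4 motifs. Matches are letters only and were not tested for use in these cells.

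Peptide loading genes were moderately abundant and higher in both knockout libraries, all 3 of them. Tap1 (gene ID 21354, chromosome 17, 34187556 to 34197225), which forms the peptide pump with Tap2, was at 16.2 and 20.7 FPKM in knockout and at 10.6 and 12.1 FPKM in wild type (ratio of means 1.62, log2 change 0.65, SE 0.17, limma adjusted p = 0.26). Tap2 (gene ID 21355, chromosome 17, 34204479 to 34216321) had 32.6 and 34.9 FPKM in knockout and 24.48 and 25.45 FPKM in wild type (log2 change 0.42, SE 0.13, limma adjusted p = 0.316). Within each genotype the Tap2 values differed little. Tapasin (Tapbp, gene ID 21356), which holds the empty class I molecule at the transporter, stood at 94.3 and 108 FPKM in knockout and at 77.8 and 93.5 FPKM in wild type (log2 change 0.24, SE 0.15, limma adjusted p = 0.647), with knockout library 1 only just above wild-type library 2. Tapbp and Tap2 values include transcripts assembled from the reads, as do those of H2-K1, H2-D1, H2-Q4, H2-Q7, H2-T23, Oasl2 and Oas2.

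The table held 10 genes within 100000 bases of the Psmb8 start, the 4 named above among them, and the others overlapped between genotypes or were near 0. Brd2, a chromatin reader, was at 54.4 and 49.1 FPKM in knockout and at 54.3 and 51.6 FPKM in wild type, and H2-DMa, a class II peptide exchange chain, at 6.84 and 10.9 FPKM in knockout and 5.83 and 8.67 FPKM in wild type. Both overlapped between genotypes. H2-DMb1, H2-DMb2, H2-Ob and H2-Aa stayed at or below 0.37 FPKM in every library. These neighbours were chosen by position after the values of the set had been seen. Just outside the window lies the class II gene H2-Oa (chromosome 17, 34092379 to 34095234). It was higher in both knockout libraries, passed the filter only through them, and is given below.

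Class I heavy chain genes, the products for which that machinery works, divided among themselves. H2-K1 (gene ID 14972), a classical heavy chain, was at 42.2 and 50.5 FPKM in knockout and at 35.4 and 55.2 FPKM in wild type. H2-D1 (gene ID 14964), the other classical chain, was at 29.3 and 34.5 FPKM in knockout and at 27.4 and 38.3 FPKM in wild type. In both genes the wild-type libraries enclosed the knockout libraries, and the log2 changes were 0.06 (SE 0.23) and −0.03 (SE 0.19). The sign of the H2-K1 change turned with median-centred values (−0.016). H2-T23, which encodes the nonclassical chain Qa-1, was the most abundant heavy chain at 87.2 and 133 FPKM in knockout and 81.7 and 106 FPKM in wild type, and also overlapped. B2m (gene ID 12010, chromosome 2, 122147687 to 122153082), the light chain that all of them need, was at 114 and 112 FPKM in knockout and at 110 and 89.0 FPKM in wild type (log2 change 0.19, SE 0.15, limma adjusted p = 0.742). Its knockout values lay just above that of wild-type library 1.

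The remaining nonclassical heavy chains went in both directions. H2-T22, which some gamma-delta T cells recognise, was at 11.3 and 11.6 FPKM in knockout and at 8.52 and 9.19 FPKM in wild type (log2 change 0.33, SE 0.13, limma adjusted p = 0.428). H2-Q7, a source of the Qa-2 antigen, had 2.04 and 1.87 FPKM in knockout and 1.14 and 1.11 FPKM in wild type (log2 change 0.48, SE 0.16, limma adjusted p = 0.375). H2-Q4 was at 9.51 and 11.3 FPKM in knockout and at 11.6 and 13.4 FPKM in wild type, and H2-Q6 at 0.90 and 0.54 FPKM in knockout and at 1.27 and 1.61 FPKM in wild type. H2-Q4 and H2-Q6 were thus lower in both knockout libraries, with log2 changes of −0.24 and −0.51 (limma adjusted p = 0.644 and 0.413), while H2-Q7 was higher in both. These genes share parts of their sequence with each other or with further genes of the family. Of all 50-base words in their GENCODE transcripts, 32% for H2-Q6, 34.9% for H2-Q7, 24.3% for H2-Q4, 28.8% for H2-T23 and 43.9% for H2-T22 also occur in another gene, against 6.87% for H2-K1, 13.9% for H2-D1 and 0% for B2m and the 3 immunoproteasome genes. For H2-T22, 37.5% of the words occur in H2-T10. That gene was at 42.0 and 56.1 FPKM in knockout and at 40.4 and 66.0 FPKM in wild type, with overlap. How reads were shared out among genes that share sequence is therefore uncertain. Class I genes also differ in sequence between mouse strains, and how well reads of this line matched the reference was not analysed here.

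**Figure D3:**
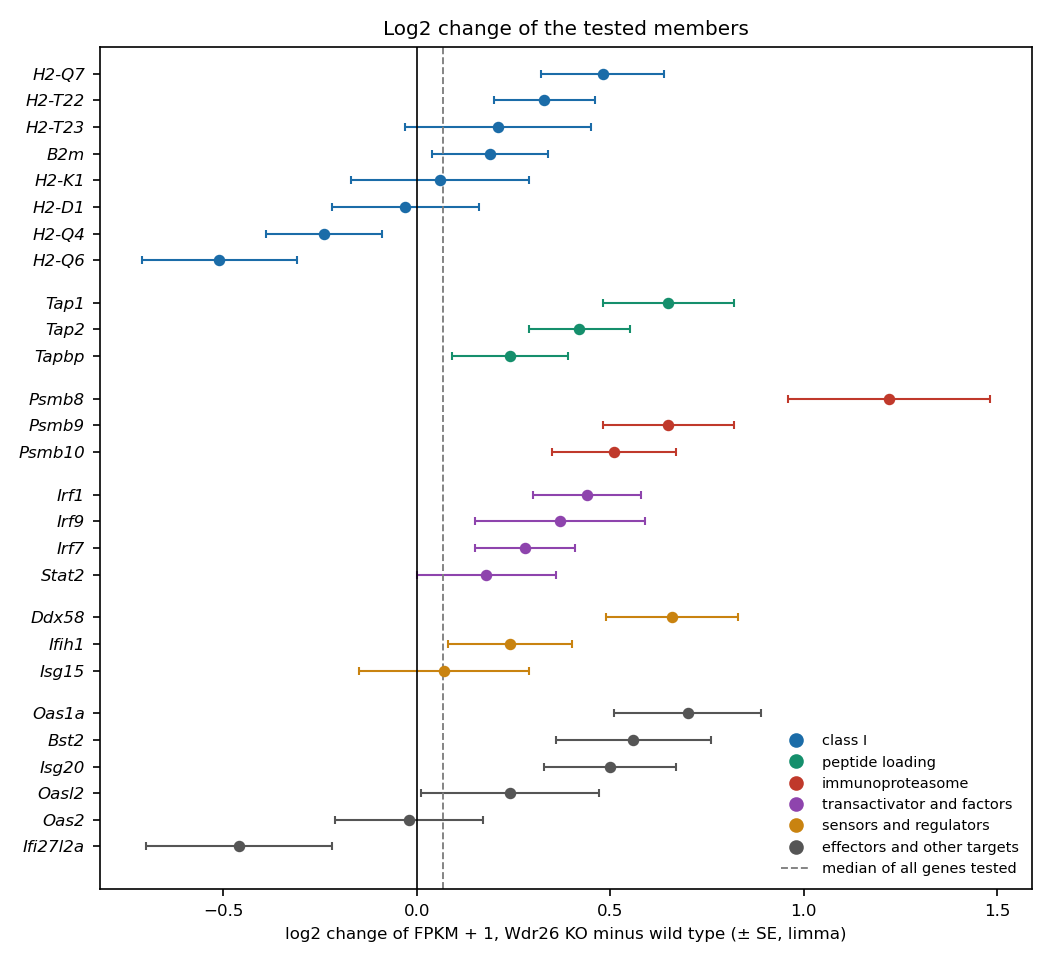
Log2 change of FPKM + 1 (Wdr26 knockout minus wild type, points, with the limma standard error as bars) for the 27 tested genes, ordered within each role, with a solid line at 0 and a dashed line at the median of all tested genes (0.067). The immunoproteasome and peptide loading genes all lie right of the dashed line, and the class I genes spread from −0.51 (H2-Q6) to 0.48 (H2-Q7).

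Among the regulators, Nlrc5, the known transactivator of class I genes, was listed at 0 in both knockout libraries and at 0.01 and 0 FPKM in wild type. Irf1, Irf7, Irf9 and Stat2 were at or above 4.43 FPKM in every library. Irf1 (gene ID 16362, chromosome 11, 53770014 to 53778374), an IRF that acts on class I and immunoproteasome promoters, was at 6.34 and 6.49 FPKM in knockout and at 4.53 and 4.43 FPKM in wild type (log2 change 0.44, SE 0.14, limma adjusted p = 0.337). Irf7, which drives type I interferon production, had 13.01 and 13.04 FPKM in knockout and 10.57 and 10.54 FPKM in wild type (log2 change 0.28, SE 0.13, limma adjusted p = 0.5). Both genes had nearly equal libraries within a genotype. Irf9 and Stat2, which act together at ISREs, overlapped. Irf9 was at 9.15 and 7.08 FPKM in knockout and at 7.42 and 4.82 FPKM in wild type, and Stat2 at 11.0 and 9.44 FPKM in knockout and at 10.3 and 7.61 FPKM in wild type. Library 2 was the lower one of each pair.

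Of the cytosolic RNA sensors, Ddx58 (RIG-I, gene ID 230073, chromosome 4, 40203777 to 40239825) was at 3.01 and 3.12 FPKM in knockout and at 1.76 and 1.39 FPKM in wild type (ratio of means 1.95, log2 change 0.66, SE 0.17, limma adjusted p = 0.251). Ifih1 (MDA5) was at 2.75 and 2.90 FPKM in knockout and at 2.31 and 2.16 FPKM in wild type (log2 change 0.24, SE 0.16, limma adjusted p = 0.648). Neither sensor overlapped between genotypes. The ubiquitin-like modifier Isg15 did overlap, at 3.06 and 3.65 FPKM in knockout and 4.01 and 2.44 FPKM in wild type. Its log2 change of 0.07 (SE 0.22) turned to −0.011 with median-centred values and to −0.024 with quantile normalization. Usp18, the protease that removes Isg15 from proteins, reached at most 0.97 FPKM in any library and was not tested.

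Antiviral effectors fell into expressed genes and genes near 0. Bst2 (tetherin, gene ID 69550, chromosome 8, 71534255 to 71537472), which retains budding virus at the cell surface, was at 28.5 and 22.7 FPKM in knockout and at 19.9 and 14.4 FPKM in wild type (log2 change 0.56, SE 0.20, limma adjusted p = 0.38). Isg20, an RNA exonuclease, had 27.5 and 20.6 FPKM in knockout and 16.3 and 16.7 FPKM in wild type (log2 change 0.50, SE 0.17, limma adjusted p = 0.364). Oas1a, an oligoadenylate synthetase that activates RNase L, stood at 2.08 and 1.54 FPKM in knockout and at 0.81 and 0.63 FPKM in wild type (log2 change 0.70, SE 0.19, limma adjusted p = 0.27). These were the effectors higher in both knockout libraries among the 6 tested (all genes 29.9%). Oas1a passed the filter only through the knockout libraries, so it had to differ. For Oas1a, 57.6% of its 50-base words also occur in Oas1g, which was listed at 0 in all libraries, so the division of reads between them is uncertain.

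Other effectors did not follow. Oas2 was at 3.67 and 2.67 FPKM in knockout and at 3.52 and 2.92 FPKM in wild type, and Oasl2 at 1.98 and 1.30 FPKM in knockout and at 1.55 and 0.94 FPKM in wild type, with overlap in both. Ifi27l2a, an interferon-alpha-inducible gene, was lower in both knockout libraries, at 2.44 and 2.51 FPKM, against 2.79 and 5.06 FPKM in wild type (log2 change −0.46, SE 0.24, limma adjusted p = 0.565), a difference set mainly by wild-type library 2.

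Several effectors widely used as a readout of interferon were barely detected. Ifit3, which shares 51.2% of its 50-base words with Ifit3b, was listed at 0 in all 4 libraries, and how reads were divided between the copies is uncertain. Rsad2 (viperin), Rtp4 and the chemokine gene Cxcl10 were at or below 0.09 FPKM. Ifit1 was at 0.28 and 0.13 FPKM in knockout and at 0.18 and 0.16 FPKM in wild type, and Ifit2 at 0.22 and 0.15 FPKM in knockout and at 0.20 and 0.10 FPKM in wild type. The dynamin-like antiviral GTPase genes were equally low, with Mx1 at 0.31 and 0.36 FPKM in knockout and 0.43 and 0.25 FPKM in wild type, and Mx2 at 0.28 and 0.13 FPKM in knockout and 0.12 FPKM in both wild-type libraries. Apart from Mx2, higher in both knockout libraries, and Rsad2, lower in both, the genotypes overlapped among these low genes. The values correspond to at most about 29 fragments, and these genes were under the filter and not tested in the main fit.

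ISRE matches occurred in the upstream windows of both kinds of gene. A window from 250 bases before to 50 bases after the start was found in RefSeq (GRCm38.p6) for 30 of the 38 listed genes, in 36 windows. ISRE letters were present in 13 of the 36 windows (36.1%), against 3.44% of all 32851 windows. The genes had been chosen as interferon targets, so this difference is part of the choice. Matches are shown with 4 bases on each side, in capitals, for genes that were expressed and for genes that were near 0, reading along each gene's own strand. Overlapping matches are joined.
Oas1a: tcggGAAATGGAAACTGAAAatct
Bst2: ccagGAAAATGAAACTGAAAggct
Ddx58: gcagTTTCGATTTCctat
H2-T22: ttagTTTCACTTTCgaat
B2m: acatGAAACTGAAAatgg
Isg15: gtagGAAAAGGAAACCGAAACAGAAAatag
Ifit1: tcagTTTCAGTTTCtcac
Ifit3: tctgTTTCAGTTTCtact
Rsad2: caacTTTCATTTTCagaa
The Oas1a and Bst2 stretches, chr5:120907526-120907549 and chr8:71537583-71537606, both on the minus strand, hold 2 overlapping matches each. That of Isg15, chr4:156200871-156200900 on the minus strand, holds 3. In Ddx58 (chr4:40239810-40239827, minus strand) the match begins 3 bases into the transcript. Those of H2-T22 (chr17:36042920-36042937, minus strand), B2m (chr2:122147544-122147561, plus strand) and Rsad2 (chr12:26456559-26456576, minus strand) begin 191, 139 and 120 bases before the start. Ifit1 (chr19:34640800-34640817) and Ifit3 (chr19:34583403-34583420), both on the plus strand, have 2 matches each, of which the one nearer the start is shown. The same letters thus stood before Ifit3, listed at 0 with the doubt given above, and before Bst2, at 14.4 to 28.5 FPKM. GAS letters were found in 6 of the 36 windows (16.7%, against 8.3% of all windows), those of Bst2, Ifit2, Irf1, Isg20, Oas1a and Psmb8, and in Bst2 the match overlaps an ISRE match. NF-kappaB letters were found in the windows of B2m and H2-Q4 (5.56%, against 1.63%), and the cyclic AMP element in none of the 36 windows (1.79% of all windows).

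The rest of the interferon pathway was described through further gene lists. None of the 9 interferon ligand genes looked for had a row in the table. Of 14 genes for receptors, Jak kinases, inhibitors and other signalling components, 13 were tested, none passed, knockout was higher in both libraries for 3 and lower in both for 2 (all genes 29.9% and 10.8%), and the median log2 change was 0.09. The smallest p-values among them belonged to Il10rb, a chain shared by the interferon-lambda and interleukin-10 receptors, at 6.89 and 7.36 FPKM in knockout and 5.75 and 5.39 FPKM in wild type (limma adjusted p = 0.497). Next were the interferon-gamma receptor gene Ifngr1, at 13.4 and 11.2 FPKM in knockout and 10.7 and 9.27 FPKM in wild type (limma adjusted p = 0.595), and the kinase gene Tyk2, at 65.7 and 74.4 FPKM in knockout and 60.3 and 58.9 FPKM in wild type (limma adjusted p = 0.61). All 3 were higher in both knockout libraries.

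In the nucleic acid sensing list 13 of 18 genes were tested and none passed. Knockout was higher in both libraries for 6 of the 13 and lower in none (all genes 29.9% and 10.8%), with a median log2 change of 0.18. Ikbke, a kinase upstream of the interferon genes, was at 5.57 and 6.08 FPKM in knockout and at 4.04 and 3.17 FPKM in wild type (log2 change 0.57, SE 0.16, limma adjusted p = 0.297). The adaptor gene Myd88 followed, at 31.41 and 23.98 FPKM in knockout and 22.02 and 20.34 FPKM in wild type (limma adjusted p = 0.502), then the dNTPase gene Samhd1, at 16.2 and 21.7 FPKM in knockout and 13.3 and 16.0 FPKM in wild type (limma adjusted p = 0.581). Neither overlapped between genotypes, Samhd1 by a small margin. The further list of interferon-induced genes had 31 tested genes of 51, with 17 higher and 2 lower in both knockout libraries (all genes 29.9% and 10.8%, or 19.9% and 20.1% with median-centred values) and a median log2 change of 0.22. Only Lgals3bp, a secreted galectin-3 binding protein, passed the test there and rose, to 37.2 and 26.6 FPKM in knockout against 6.34 and 4.74 FPKM in wild type (log2 change 2.32, SE 0.21, limma adjusted p = 0.035). That call was lost when low genes were left in (adjusted p = 0.28), with a mean of at least 5 FPKM (0.0782), with quantile normalization (0.0806), and without wild-type library 1 (0.0608) or 2 (0.108). Next came Xaf1, an interferon-induced apoptosis factor, at 4.80 and 4.32 FPKM in knockout and 2.17 and 1.90 FPKM in wild type (limma adjusted p = 0.153), and Znfx1, a helicase that senses viral RNA, at 12.8 and 12.3 FPKM in knockout and 19.7 and 22.3 FPKM in wild type (limma adjusted p = 0.173). The 2 lie on opposite sides.

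Other genes of antigen presentation showed 5 higher and 2 lower in both knockout libraries among 20 tested of 28 (all genes 29.9% and 10.8%), none past the threshold. Their median log2 change was 0.12. Rfx5, a subunit of the complex that binds class I and class II promoters, was at 24.7 and 30.4 FPKM in knockout and at 18.7 and 17.4 FPKM in wild type (log2 change 0.58, SE 0.15, limma adjusted p = 0.266). Psme1, a subunit of the proteasome activator that works with the immunoproteasome, was at 54.7 and 55.6 FPKM in knockout and at 37.7 and 41.3 FPKM in wild type (log2 change 0.47, SE 0.13, limma adjusted p = 0.27). The nonclassical heavy chain gene H2-T24 was lower in both, at 3.53 and 4.36 FPKM in knockout, against 5.63 and 6.93 FPKM in wild type (limma adjusted p = 0.323). Class II genes were mostly near 0: 2 of 11 were tested, H2-DMa and H2-Oa, whose product modulates class II peptide loading. H2-Oa was at 2.07 and 1.34 FPKM in knockout and at 0.38 and 0.58 FPKM in wild type (limma adjusted p = 0.247), and it passed the filter only through the knockout libraries. The class II transactivator gene Ciita and Cd74 were at or below 0.16 FPKM.

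**Figure D4:**
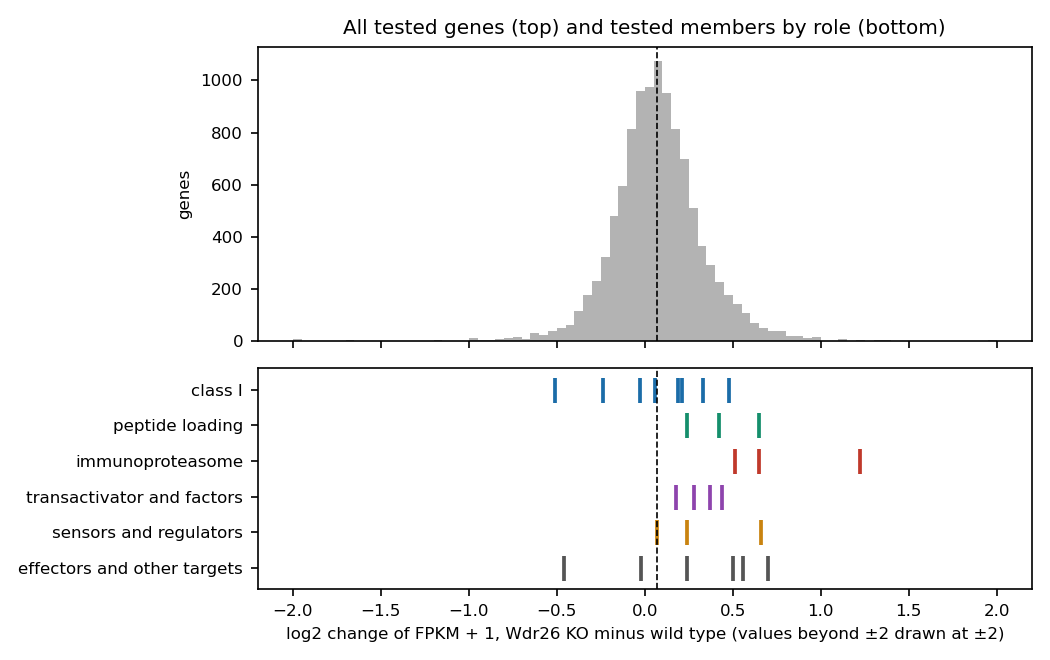
Distribution of the log2 change of FPKM + 1 (Wdr26 knockout minus wild type) over the 10670 tested genes (top, number of genes per bin of 0.05, values beyond ±2 drawn at ±2) and the tested genes of each role as ticks (bottom), with a dashed line at the median of all tested genes. The ticks of the immunoproteasome (0.51 to 1.22) lie on the right flank of the distribution, while those of class I heavy chains and effectors fall on both sides of the dashed line.

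The set also varied between libraries of the same genotype. Of the 14 tested antigen presentation genes (heavy chains, B2m, peptide loading and immunoproteasome), 10 had the higher value in library 2 of each genotype and 2 had the lower one there. Among the 13 tested regulators, sensors and effectors, Ifi27l2a was the 1 gene higher in library 2 of each genotype, and 6 were lower there. Over all genes tested the shares were 24% higher and 46.5% lower. Psmb8 was thus highest in knockout library 2, and Bst2 in knockout library 1, although both genes were higher in both knockout libraries. The library number entered only an alternative fit, as a block, described at the end. That fit called 15 of the 27 tested genes, among 17.5% of all genes. Without Oas1a and H2-Q6, which passed the filter through 1 genotype, 12 were higher and 1 lower. The labels do not state a pairing, and what part the number has in the values was not tested otherwise.

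Leaving out a library changed some calls. Without knockout library 1, Psmb8 (log2 change 1.47, limma adjusted p = 1.24e-08) and Tap1 (0.81, adjusted p = 0.00305) passed, in a fit that called 738 genes in all. Without knockout library 2, Psmb8 (0.96, limma adjusted p = 0.00203), Bst2 (0.72, adjusted p = 0.0182) and Isg20 (0.70, adjusted p = 0.022) passed, among 328 genes. These fits take their spread from the wild-type pair and assume that the lone knockout library varies likewise. With wild-type library 1 or 2 left out no gene of the set passed, and 3 and 5 genes passed in all.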

How the data were processed

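Wild-type and Wdr26-/- DS19 cells were grouped by the sample titles, which also give the numbers 1 and 2. RNA was depleted of ribosomal RNA, per the labels' protocols. The authors deposited 1 table whose header names no unit. The authors' deposited values behave as FPKM, computed before deposit by a program that is not stated: multiplied by GENCODE M21 transcript length they sum to between 1.02e+09 and 1.04e+09 in each library. The submitters' processing notes name TopHat2 and mm10. No label states whether strand was kept. Tested members that overlap a neighbouring gene (B2m, Stat2, Ifih1, Tapbp, Isg15, H2-T22, H2-T23, Ifi27l2a) and genes with near-identical copies are uncertain. The same holds for Nlrc5, Usp18, Ifit1, Rtp4 and Cxcl10, which overlap a neighbour and were under the filter.

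Depth was estimated from steps of 1 fragment in genes with 1 transcript of 400 to 900 bases, less 200 bases of effective length. It is approximate, so no counting interval was computed, and fragment numbers in the text are estimates. Gene IDs were matched to RefSeq on GRCm38.p6 (mm10) for 16311 of 17393 genes.

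Genes that reached 1 FPKM in 2 or more libraries were fitted with limma 3.58.1 in R 4.3.3 on log2(FPKM + 1), lmFit and eBayes with a trend and no covariates, and adjusted by Benjamini-Hochberg over all 10670. Log2 changes understate the change of low genes. Alternatives were median centring, quantile normalization, no filter, a mean of at least 5 FPKM, no trend, 0.1 as the pseudocount, a block for the library number, each library left out, and 11 globin genes left out. The members, lists, motifs and tests were chosen with earlier results of these data known. Named were all members and, in each further list, genes past the threshold filled up to 3 by smallest p. H2-T10 and Oas1g were added for the sequence they share with members. Some genes of the lists are not reported here. The fit was tested on simulated data, with 200 changed genes per run, all with a mean above 5 FPKM. It recovered 16.6% of 1.5-fold, 70.6% of 2-fold and 100% of 4-fold changes, with 6.1 false calls among 150 on average. Small changes would thus mostly be missed. The simulated libraries varied independently, unlike the same-numbered libraries here.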

Additional observations from a re-analysis of the deposited data

How the results depend on the processing

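The count of genes called over the whole table was 10 and moved to 0 in limma without the filter on low genes (1692 at an unadjusted p under 0.05), 2 under a stricter filter (mean of 5 FPKM or more) and 21 without globin genes. With single libraries left out it ran from 3 to 738. Of the set, no gene was called in any of these, except 2 and 3 genes without knockout libraries 1 and 2, so that leaving out a library gave between 0 and 3. In fits with the library number as a replicate block, 15 of the 27 tested genes passed (13 higher, 2 lower in knockout), among 1863 of all genes (17.5%). Without Oas1a and H2-Q6, which passed the filter through 1 genotype, 12 were higher and 1 lower. The block leaves almost no information on the spread of a single gene, so these calls lean heavily on the spread that limma shares across genes. The numbers are shared only as labels: with 2 pairs, and a correlation of 0.61 between the deviations of same-numbered libraries, a pairing cannot be told from the design. Genes of the set higher in both knockout libraries numbered 14 to 16 of 27 in the alternatives that kept the filter and all libraries, 17 of 36 without the filter and 11 of 17 with the stricter one. With 1 library left out, 17 to 20 of 27 had every remaining knockout value above every remaining wild-type value, a weaker condition. The median log2 change of tested members was 0.20 to 0.38 over all alternatives. The 3 immunoproteasome ratios kept their direction with each library left out, at 0.76 to 1.93 for Psmb8, 0.78 to 1.07 for Psmb9 and 0.30 to 0.69 for Psmb10 on the log2 scale.

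Single genes with changes near 0 turned sign. With median centring H2-K1 came to −0.016 and Isg15 to −0.011, and with quantile normalization Isg15 came to −0.024. With libraries left out in turn the log2 changes ran from −0.25 to 0.38 for H2-K1, −0.26 to 0.21 for H2-D1, −0.092 to 0.51 for H2-T23, −0.21 to 0.34 for Isg15, −0.20 to 0.15 for Oas2 and −0.013 to 0.38 for Stat2. The cause was not tested. Over 314 single-gene values, 281 kept sign and side of the threshold, 20 passed newly and 13 turned sign. Low values limit what can be said of the 10 genes under 1 FPKM.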
